A study of Sus scrofa with 41 samples.

Results

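TBC1D7 and the genes of the TSC-mTORC1 pathway were described in the psoas major muscle, the tenderloin, of 41 boars. The genes were taken by pig Ensembl symbol from tables of 25880 genes. Of the 7 genes named (TBC1D7, TSC1, TSC2, RHEB, MTOR, RPTOR and DEPTOR), 5 were found, and all 5 passed the filter on low counts, while TSC1 and DEPTOR were not analysed here. TBC1D7 was chosen by its breed difference in these counts, so its breed values below are a description without a test, and the 4 others were listed as its partners in the pathway.

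The pigs were 13 Danbred Duroc and 28 Danbred Landrace boars, purebred lines that received no treatment. Each pig had a feed conversion ratio (FCR), which the labels give without a definition. The study's methods describe it as growth divided by feed consumed, whereas values near 2 fit feed divided by growth, as the name is commonly used, and under that reading a low FCR marks an efficient pig. Directions below are given for the ratio as labelled. FCR ran from 1.83 to 2.18 (median 1.94) in Duroc and from 1.92 to 2.25 (median 2.1) in Landrace. The Duroc pigs were 131 to 156 days old (median 148) and the Landrace pigs 147 to 166 days (median 154.5). The RNA integrity number (RIN), a scale of RNA degradation on which intact RNA scores high, was 7.0 to 8.8 in Duroc and 6.5 to 8.3 in Landrace. The pigs were slaughtered in 5 batches, and batch 1 was a single Duroc pig, whose value the batch term of the models takes up entirely. Breed, FCR, age and batch overlapped only in part, so their contributions are estimated together.

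TBC1D7 is a small subunit of the TSC complex, beside TSC1 and TSC2, and stabilises it. TSC2 carries the GTPase-activating domain that switches off RHEB, a small GTPase of the lysosome surface, and active RHEB switches on the kinase MTOR within mTORC1. RPTOR is the subunit of mTORC1 that recruits its substrates, and DEPTOR an inhibitor of the kinase. mTORC1 is the main control point through which insulin, amino acids and energy state set protein synthesis and autophagy in muscle.

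Each library held 22188911 to 25954816 read pairs on genes, and 69.9% to 80.9% of counted pairs fell on genes. The skeletal muscle marker ACTA1, the actin of the sarcomere, made up 97100 CPM (counts scaled to a common library total) in Duroc and 110300 CPM in Landrace on average, which matches the labelled tissue. All levels below are in CPM after TMM scaling, which sets libraries on a common scale from the bulk of the genes. Since gene lengths differ, levels are compared between pigs and not between genes. In whole muscle, a change in the number of cells of a type and a change in RNA per cell cannot be told apart.

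TBC1D7 (ENSSSCG00000001053, chromosome 7, 9685273 to 9708781, Sscrofa11.1) was about 2.00 times as high in Landrace as in Duroc muscle by the ratio of the breed means. The 13 Duroc pigs ranged from 7.57 to 13.3 CPM with a median of 10.4, and the 28 Landrace pigs from 13.36 to 27.1 CPM with a median of 19.95. The means were 10.1 ± 1.57 (SD, n = 13) and 20.3 ± 3.12 CPM (SD, n = 28). The breeds did not overlap, although the highest Duroc and the lowest Landrace pig lay next to each other. Only 8 of 11146 genes tested (0.0718%) were higher in every Landrace than in every Duroc pig. These values rest on 208 to 339 read pairs per Duroc pig and 281 to 621 per Landrace pig. With scaling by library size alone the breeds overlapped, as 27 of the 28 Landrace pigs lay above the highest Duroc pig at 13.1 CPM, and 10 of the 13 Duroc pigs lay below the lowest Landrace pig at 11.8 CPM. The scatter among pigs was alike in size in both breeds, with a coefficient of variation of 15.5% in Duroc and 15.4% in Landrace.

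**Figure D1:**
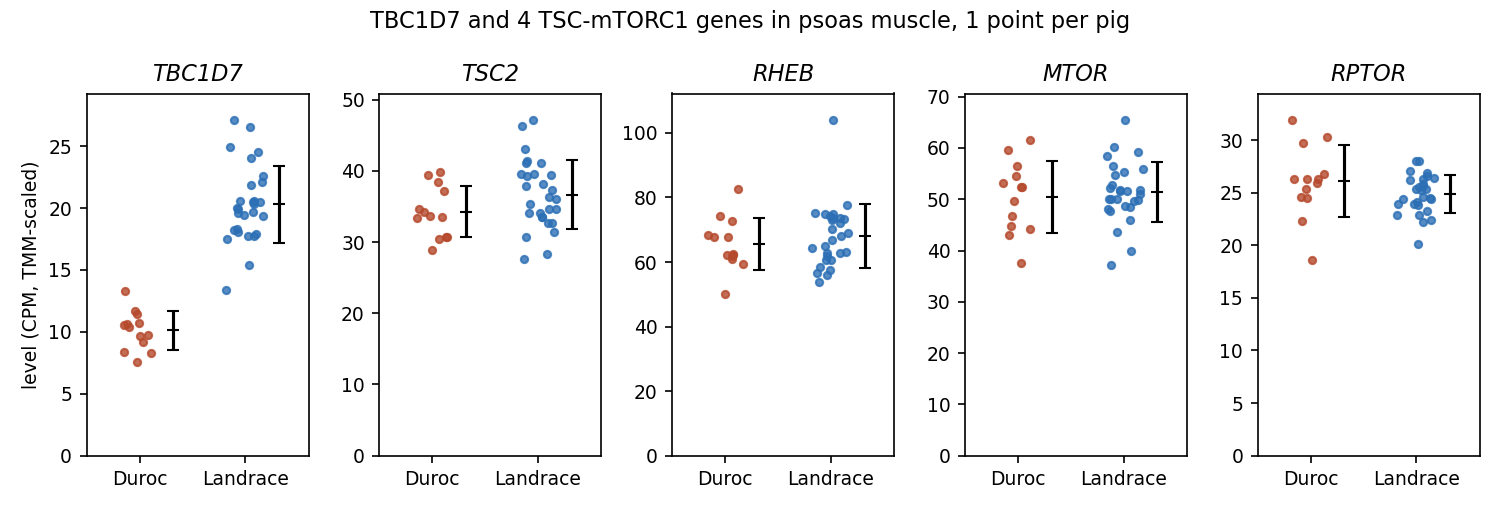
Level of TBC1D7 and of 4 TSC-mTORC1 genes in CPM after TMM scaling (y axis from 0, 1 scale per gene) by breed (x axis), 1 point per pig, with the mean and SD as a black bar. The 28 Landrace pigs lie above the 13 Duroc pigs for TBC1D7, from 13.36 CPM upwards, and the breeds overlap for TSC2, RHEB, MTOR and RPTOR.

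Since all Landrace pigs lay above all Duroc pigs on this scale, the breeds could not overlap within a batch either, and the batch values are given for their size. In batch 2 the medians were 10.6 CPM in 3 Duroc and 19.5 CPM in 12 Landrace pigs. In batch 3 they were 9.90 CPM in 2 Duroc and 19.4 CPM in 7 Landrace pigs. In batch 4 they were 9.78 CPM in 3 Duroc and 20.1 CPM in 2 Landrace pigs, and in batch 5 they were 10.1 CPM in 4 Duroc and 22.1 CPM in 7 Landrace pigs. Expressed as log2 ratios of medians these differences ran from 0.89 to 1.14 over the 4 batches that held both breeds.

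**Figure D2:**
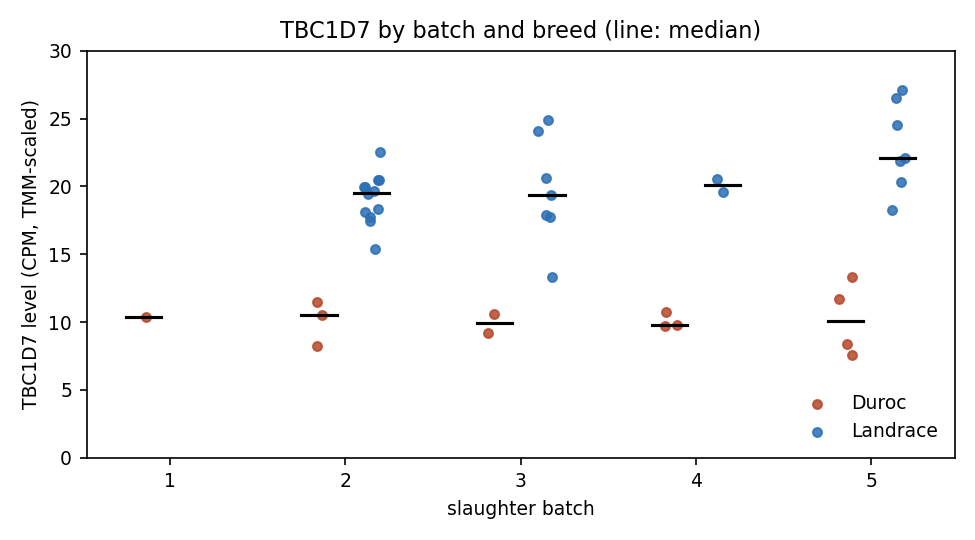
TBC1D7 level in CPM after TMM scaling (y axis, from 0) in each of the 5 slaughter batches (x axis), 1 point per pig, Duroc in red and Landrace in blue, with the median as a line. The medians of batches 2 to 5 lie between 9.78 and 10.6 CPM in Duroc and between 19.4 and 22.1 CPM in Landrace, and batch 1 holds 1 Duroc pig.

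In the joint model of FCR, RIN, age, breed and batch, fitted with edgeR over all genes, the breed term of TBC1D7 was a log2 difference of 1.30 (SE 0.0976), a 2.45-fold level in Landrace. By size this was rank 156 of 11146 genes. The adjusted difference was larger than the plain ratio of means. It was 1.19 with FCR left out of the model, 1.22 with age left out, 1.17 with batch left out and 1.00 with breed as the only term. Leaving out single pigs moved it between 1.26 and 1.33.

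None of the partners showed a breed difference of that size. At an FDR under 0.1, the threshold used throughout, 3692 genes (33.1% of those tested) differed by breed, 1737 higher (15.6%) and 1955 lower (17.5%) in Landrace. Of the 4 partners, 2 passed, TSC2 higher and RPTOR lower, in opposite directions. With only 4 partners this share cannot be set apart from the background. Over the 18 other settings of the model, the partners' breed terms ran from -0.35 (RPTOR) to 0.29 (MTOR) on the log2 scale, while that of TBC1D7 ran from 1.00 to 1.48.

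TSC2 (ENSSSCG00000008040, chromosome 3, 39898924 to 39935579), the catalytic partner, lay between 28.9 and 39.8 CPM in Duroc (median 33.6) and between 27.6 and 47.1 CPM in Landrace (median 36.2). The breeds overlapped over most of their range. The breed term was 0.21 (SE 0.0875, edgeR FDR = 0.0684). This call was lost in 9 of 18 other settings, among them scaling by library size alone (0.039, edgeR FDR = 0.812), batch left out (0.15, edgeR FDR = 0.229) and breed as the only term (0.099, edgeR FDR = 0.317). It was also lost on leaving out Duroc pig 5, 6 or 10 or Landrace pig 14 (FDR 0.101 to 0.147). The value further depended on how overlapping genes were counted. STAR's unstranded count drops pairs that lie on more than 1 gene, and TSC2 overlaps PKD1, the polycystin-1 gene, by 532 bases in the RefSeq annotation. Its counts in the 2 strand-specific columns added up to a median of 2.02 times the unstranded count in Duroc and 1.96 times in Landrace. With the strand columns added, which can also bring in pairs of the overlapping gene, the breed term of TSC2 was -0.0087 (edgeR FDR = 0.952). For TBC1D7 and RHEB the ratio was exactly 1.00 in every pig.

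RPTOR (ENSSSCG00000017139, chromosome 12, 1709121 to 1991844), the substrate-recruiting subunit, ranged from 18.6 to 31.9 CPM in Duroc (median 26.3) and from 20.1 to 28.0 CPM in Landrace (median 24.9). The Landrace range lay within the Duroc range. Its breed term of -0.17 (SE 0.0675, edgeR FDR = 0.0536) pointed away from that of TBC1D7. The call was lost in 6 of 18 other settings, among them without batch 2 (-0.053, edgeR FDR = 0.773), with batch left out (-0.11, edgeR FDR = 0.271) and with breed as the only term (-0.070, edgeR FDR = 0.402). With scaling by library size alone the term was -0.35 (edgeR FDR = 0.00426), and without batch 5 it was -0.29 (edgeR FDR = 0.0264). The call was also lost on leaving out Duroc pig 1, 3, 6 or 12 or Landrace pig 14, 18 or 28 (FDR 0.1 to 0.24).

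RHEB (ENSSSCG00000016434, chromosome 18, 5779439 to 5821839), the direct target of the complex, ranged from 50.1 to 82.6 CPM in Duroc (median 62.6) and from 53.7 to 103.9 CPM in Landrace (median 67.5). Its breed term of 0.12 (SE 0.0762) did not pass (edgeR FDR = 0.245), and was -0.054 with scaling by library size alone and -0.017 with batch left out. MTOR (ENSSSCG00000003413, chromosome 6, 71286989 to 71412913), the kinase, ranged from 37.6 to 61.5 CPM in Duroc (median 52.3) and from 37.2 to 65.4 CPM in Landrace (median 51.3). Its breed term of 0.15 (SE 0.0879) did not pass either (edgeR FDR = 0.216). Leaving out Duroc pig 3 brought MTOR to 0.23 (edgeR FDR = 0.0732), and with scaling by library size alone the term was -0.026. Both genes overlapped between the breeds nearly throughout.

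**Figure D3:**
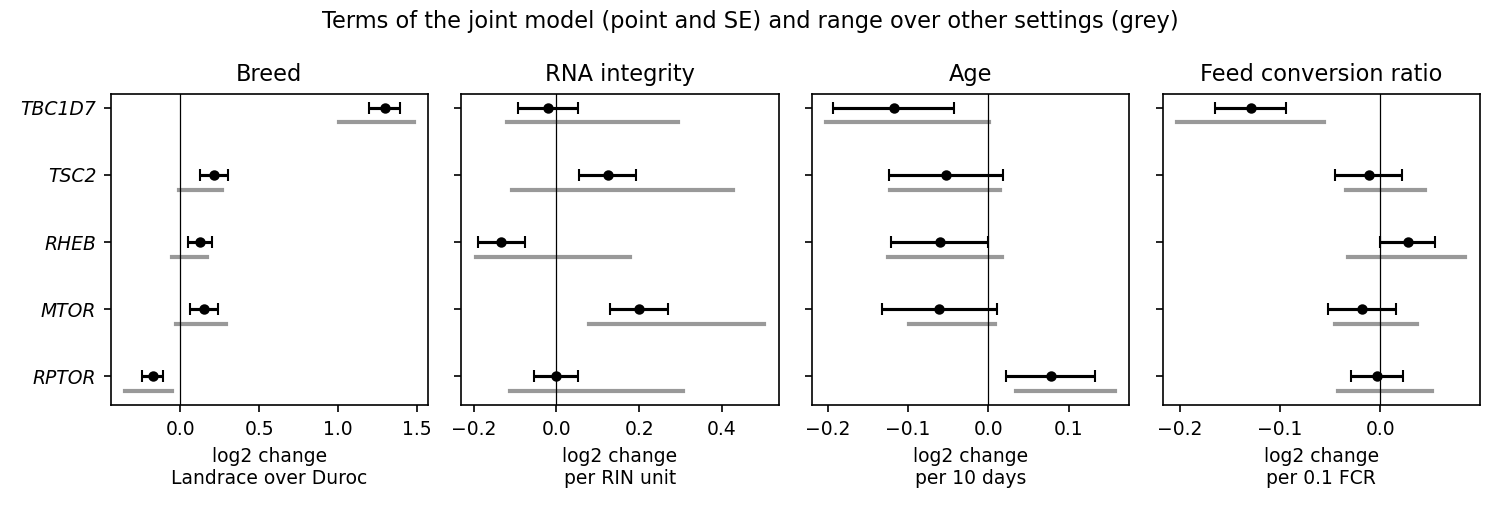
Log2 change (x axes) of each gene (rows) for breed, per RIN unit, per 10 days of age and per 0.1 of FCR in the joint edgeR model, as a point with its SE, with the range over the other settings as a grey line. The breed term of TBC1D7 stands at 1.30, and those of the 4 partners lie between -0.17 and 0.21.

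From pig to pig within a breed, none of 8 correlations of log2 CPM with TBC1D7 (4 partners in 2 breeds) passed after adjustment on the TMM scale, while 3 in Landrace passed with scaling by library size alone. In the 28 Landrace pigs, Pearson's r with TBC1D7 was 0.090 for TSC2, 0.085 for RHEB, 0.070 for MTOR and -0.077 for RPTOR (permutation test, two-sided, p = 0.65 to 0.721, adjusted p = 0.721 for all). Spearman's rho was 0.004, 0.186, 0.139 and 0.071 in the same order (permutation p = 0.343 to 0.985, adjusted p = 0.723 to 0.985). Without the 2 pigs farthest from the median of TBC1D7, r was 0.082, 0.065, 0.437 and 0.244. Within the Landrace batches of at least 6 pigs (batches 2, 3 and 5) r had both signs for every partner, from -0.540 to 0.664.

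In the 13 Duroc pigs, r was -0.205 for TSC2, 0.245 for RHEB, -0.236 for MTOR and -0.415 for RPTOR (permutation test, two-sided, p = 0.502, 0.422, 0.439 and 0.16, adjusted p = 0.721 for all). The strongest by rank was RPTOR, with a rho of -0.582 (permutation p = 0.0408, adjusted p = 0.326). For TSC2, RHEB and MTOR rho was -0.187, 0.313 and -0.198 (permutation p = 0.297 to 0.543, adjusted p = 0.723). Without the 2 pigs farthest from the median of TBC1D7 r was -0.212, 0.049, -0.190 and -0.337 in the order TSC2, RHEB, MTOR, RPTOR. No correlation was computed in the Duroc batches, which held 1 to 4 pigs, and as residuals on RIN, age and batch r was 0.229, 0.135, 0.127 and -0.359 in the same order. The 3 Landrace correlations that passed with scaling by library size alone were those of TSC2 (0.436), MTOR (0.509) and RPTOR (0.448), each with an adjusted p of 0.0692. The same change of scaling moved the median RIN term of all genes from -0.010 to 0.30.

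Among the partners themselves, as a description, r between TSC2 and MTOR was 0.840 in Duroc and 0.682 in Landrace. In Duroc RPTOR also varied with MTOR (0.671) and TSC2 (0.635), and RHEB against MTOR (-0.650) and RPTOR (-0.676), but in Landrace those values were 0.227, 0.027, -0.038 and -0.121. All genes of a pig share 1 library and its RNA quality.

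RIN was the term with the most genes called, 5775 or 51.8%, with 2667 rising (23.9%) and 3108 falling (27.9%). TBC1D7 was not called, with a log2 change of -0.020 per RIN unit (SE 0.073, edgeR FDR = 0.851). Of the 4 partners, MTOR rose with RIN by 0.20 (SE 0.0708, edgeR FDR = 0.0209) and RHEB fell by 0.13 (SE 0.0575, edgeR FDR = 0.0582). TSC2 had 0.12 (edgeR FDR = 0.142) and RPTOR -0.0002 (edgeR FDR = 0.998). These calls were not stable over refits. Leaving out 1 pig at a time ended the RHEB call in 21 of 41 fits and brought TSC2 past the threshold in 20 of 41. Duroc pig 2 is the single pig of batch 1, taken up by the batch term. Without it RHEB had -0.099 (edgeR FDR = 0.163) and TSC2 0.16 (edgeR FDR = 0.063). A changed call therefore does not mark the pig left out as its source, and the cause was not tested. MTOR lost its call without Landrace pig 1 (edgeR FDR = 0.16). Without the pigs with RIN below 7 the RIN term of MTOR was 0.078 (edgeR FDR = 0.553), and without batch 2 it was 0.17 (edgeR FDR = 0.212). With scaling by library size alone TBC1D7 had a RIN term of 0.29 (edgeR FDR = 0.00205). The RIN by breed term, which tests whether the slopes differ, passed for 0 genes by edgeR (541 genes, 4.85%, at an unadjusted p under 0.05) and so for none of the 5, and for TBC1D7 it was 0.059 (SE 0.158, edgeR FDR = 0.993).

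Age was called for 196 genes (1.76%) and for none of the 5. TBC1D7 changed by -0.12 per 10 days (SE 0.0754, edgeR FDR = 0.455). The partners ran from -0.061 (MTOR, edgeR FDR = 0.715) to 0.077 (RPTOR, edgeR FDR = 0.516).

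FCR was called for no gene by edgeR (0 of 11146) or by limma voom, and for 5 genes by DESeq2, none of them among the 5 described here, while 968 genes (8.68%) had an unadjusted p under 0.05. TBC1D7 was among these. Its level was estimated to change by -8.57% per 0.1 of FCR (log2 -0.13, SE 0.0356, edgeR p = 0.000852), which did not pass over all genes (edgeR FDR = 0.437). It did not pass in any of 19 other settings, in which the log2 change stayed below 0, from -0.20 to -0.057. The partners were nearer to 0, from -0.018 (MTOR) to 0.027 (RHEB), with edgeR FDRs of 0.78 to 0.979.

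Because the joint model assumes the same slope in both breeds, TBC1D7 was also set against FCR, RIN and age within each breed. These 6 correlations were added after the models had been chosen, and their p-values do not count the other ways in which TBC1D7 and FCR were compared. In the 13 Duroc pigs TBC1D7 was lower where FCR was higher. The 3 Duroc pigs with the lowest FCR (1.83, 1.85 and 1.89) had 11.7, 13.3 and 9.69 CPM. The 3 with the highest FCR (2.08, 2.11 and 2.18) had 8.26, 8.38 and 7.57 CPM, so these groups of 3 did not overlap.

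Over all 13 Duroc pigs Pearson's r was -0.909 (permutation test, two-sided, p = 2e-05, adjusted over the 6 correlations 0.00012) and Spearman's rho -0.819 (permutation p = 0.00102, adjusted 0.00612). Without the 2 pigs farthest from the median FCR, r was -0.836, and leaving out each pig in turn gave -0.949 to -0.870. No gene of the 11146 had a larger correlation with FCR in Duroc by size, and as residuals on RIN, age and batch r was -0.918. The value depended on the scaling. With library size alone r was -0.470 (adjusted permutation p = 0.249), so the call was lost. The pig with 13.3 CPM also had the lowest RIN of the Duroc pigs, 7.0. No correlation was computed in the Duroc batches, which held 1 to 4 pigs, and their values are given instead. In batch 5 the pigs at FCR 1.83, 1.85, 2.11 and 2.18 had 11.7, 13.3, 8.38 and 7.57 CPM. In batch 2 the pigs at 1.91, 1.97 and 2.08 had 11.5, 10.6 and 8.26 CPM, and in batch 3 those at 1.94 and 1.99 had 10.6 and 9.19 CPM. In batch 4 those at 1.89, 1.93 and 1.98 had 9.69, 10.7 and 9.78 CPM, with no fall from the first to the last.

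Count models of the Duroc pigs alone, with 5 residual degrees of freedom, gave the same direction without passing over all genes. The log2 change per 0.1 of FCR was -0.17 by edgeR (SE 0.0599, p = 0.0177, FDR = 0.786) and -0.19 by DESeq2 (p = 0.0341, FDR = 1). These p-values are larger than that of the correlation also before adjustment.

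In the 28 Landrace pigs the relation had the same sign and did not pass. Pearson's r was -0.341 (permutation test, two-sided, p = 0.0757, adjusted 0.227) and rho -0.305 (permutation p = 0.115, adjusted 0.346). Without the 2 pigs farthest from the median FCR r was -0.405. Within batches it was 0.061 in batch 2, -0.956 in batch 3 and -0.654 in batch 5. Of all genes, 503 (4.51%) had a correlation with FCR as large in size. Models of the Landrace pigs alone gave -0.094 by edgeR (p = 0.0808, FDR = 0.956). The slopes of the breeds were not shown to differ, with an FCR by breed term of 0.10 (SE 0.0709, edgeR p = 0.164, FDR = 0.938). That term passed for 0 genes by edgeR and by limma voom, with 582 genes (5.22%) at an unadjusted p under 0.05.

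**Figure D4:**
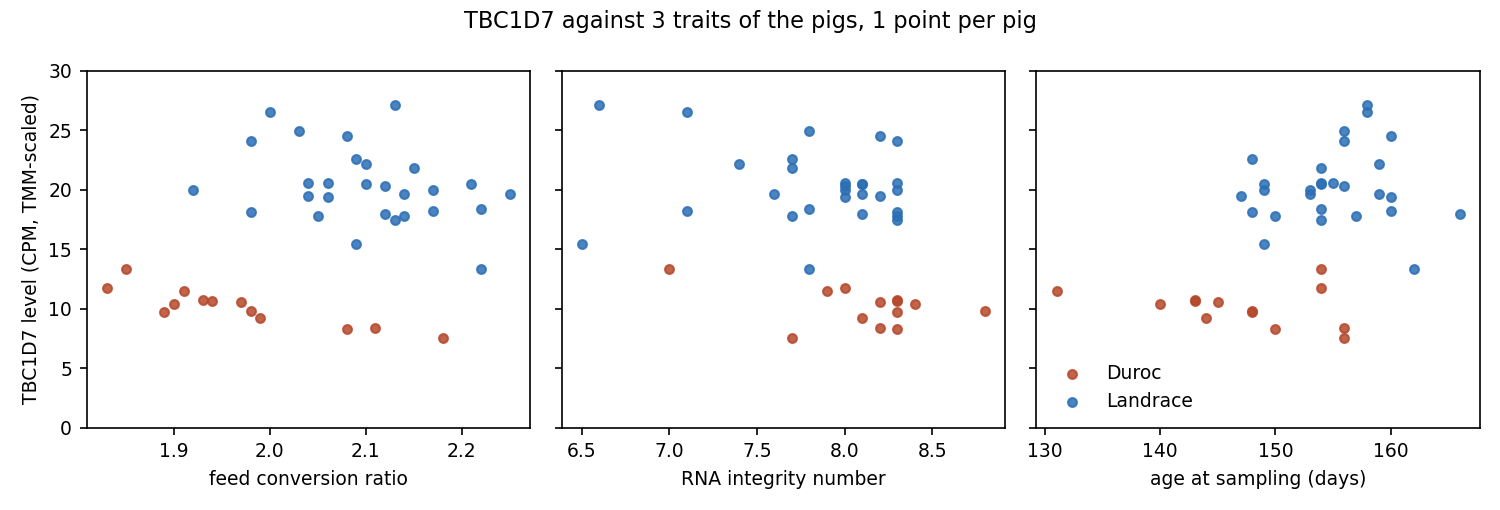
TBC1D7 level in CPM after TMM scaling (y axis, from 0) against feed conversion ratio, RNA integrity number and age in days (x axes), 1 point per pig, Duroc in red and Landrace in blue. In Duroc the points fall from 11.7 CPM at an FCR of 1.83 to 7.57 CPM at 2.18, and the breeds stay apart at a shared FCR, RIN or age.

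The correlations of TBC1D7 with RIN and age did not pass. In Duroc r was -0.352 with RIN (permutation p = 0.24, adjusted 0.403, rho -0.226, p = 0.454, adjusted 0.624) and -0.332 with age (permutation p = 0.268, adjusted 0.403, rho -0.356, p = 0.232, adjusted 0.464). Without the 2 farthest pigs these were 0.205 and -0.196. In Landrace r was -0.111 with RIN (permutation p = 0.569, adjusted 0.683, rho -0.126, p = 0.52, adjusted 0.624) and 0.046 with age (permutation p = 0.818, adjusted 0.818, rho 0.078, p = 0.694, adjusted 0.694). Without the 2 farthest pigs these were -0.171 and 0.387. In batches 2, 3 and 5 of the Landrace pigs r was 0.456, 0.405 and -0.286 with RIN, and 0.002, -0.618 and 0.038 with age.

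The wider pathway moved with breed about as often as genes in general. Of 83 listed genes upstream and downstream of mTORC1, 75 were tested, and 25 of them (33.3%) differed by breed, 17 higher and 8 lower in Landrace. Over all genes 15.6% were higher and 17.5% lower. The counts of the lists that make up this total changed with the settings, as given below. Their median breed term was 0.042, beside -0.0024 over all genes. None reached the size of TBC1D7, and the largest by size was 0.83, that of RPS6KA1, a kinase that phosphorylates TSC2, which was lower in Landrace. This term (SE 0.316, edgeR FDR = 0.0485) rests on low levels, with means of 2.15 CPM in Duroc and 1.88 CPM in Landrace. The ranges of the breeds overlapped, 1.16 to 4.37 CPM in Duroc and 0.62 to 3.54 CPM in Landrace. With RIN, 42 of the 75 were called (56%, beside 51.8% of all genes), with age 3 (beside 1.76% of all genes) and with FCR 0.

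Among the other subunits of the mTOR complexes, 3 of 8 tested (37.5%) differed by breed, beside 33.1% of all genes. MAPKAP1, a subunit of mTORC2, was higher in Landrace by 0.29 (SE 0.0591, edgeR FDR = 0.000581), and TELO2, which assembles kinases of the MTOR family, by 0.18. MLST8, a subunit of both complexes, was lower, with a log2 difference of -0.34 (edgeR FDR = 0.0327). With the strand columns summed, 1 of the 8 was called. Among the inputs to the TSC complex, 3 of 19 were higher and 3 lower (31.6% in all), and 2 in all without batch 5. PRKAA2 and PRKAG3, the catalytic and the regulatory subunit of AMPK that are enriched in skeletal muscle, were higher by 0.52 and 0.55 (edgeR FDR = 0.00103 and 0.00805), while PRKAG1, another regulatory subunit, had -0.40 (edgeR FDR = 0.0188).

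In amino acid sensing, 3 of 19 genes were higher and 3 lower (31.6% in all, beside 33.1% of all genes), and 3 in all without batch 2 or with breed as the only term. SAMTOR, a sensor of S-adenosylmethionine, had means of 10.6 ± 2.00 CPM in Duroc (SD, n = 13) and 16.1 ± 3.05 CPM in Landrace (SD, n = 28), a breed term of 0.81 (edgeR FDR = 8.58e-06). SESN1, a sestrin, was higher by 0.73 (edgeR FDR = 0.00167). SLC38A9, the lysosomal arginine sensor, had -0.46 (edgeR FDR = 0.00461). In the GATOR and KICSTOR complexes, which gate this signal, 2 of 10 genes were higher, with SEH1L at 0.46 and SEC13 at 0.23, and scaling by library size alone gave 6 calls in place of 3.

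Among mTORC1 substrates and translation factors, 7 of 19 tested were higher in Landrace and none was lower (background 15.6% and 17.5%). The 7 calls became 4 with batch left out or without batch 2, and 3 without batch 5. TFEB, the transcription factor of lysosome genes that mTORC1 keeps out of the nucleus, had means of 47.3 ± 7.97 and 63.3 ± 12.4 CPM in Duroc and Landrace (SD, n = 13 and 28) and a breed term of 0.50 (edgeR FDR = 0.00111). EIF4B, a translation initiation factor, had 0.37 and RPS6KB1, the S6 kinase, 0.26. Of 22 lysosome genes linked to TFEB, 5 were lower in Landrace and 1 higher. These 6 calls became 13 with scaling by library size alone and 3 without batch 2 or batch 5. The protease genes TPP1 (-0.54) and CTSD (-0.60) and the lysosomal membrane protein gene LAMP1 (-0.30) had the smallest p-values. Of 14 genes linked to ATF4, a transcription factor downstream of mTORC1 (amino acid and serine metabolism, amino acid transport, tRNA synthetases and transcription regulators), MTHFD2 (-0.53) and SLC3A2 (-0.69) were lower and SLC7A5 (0.59) was higher, with 1 call without batch 2 and 0 without batch 5. These are mRNA levels, and the phosphorylation through which mTORC1 acts was not measured.

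Relatives of the members gave a similar picture. Of 30 other tested genes with a TBC domain, the Rab GTPase-activating domain that names TBC1D7, 7 were higher and 6 lower in Landrace (43.3% in all, beside 33.1% of all genes). This count of 13 depended on the model and the batches, and was 8 with age left out, 5 with breed as the only term, 4 with batch left out, 2 without batch 5 and 1 without batch 2. USP6NL had -0.78, TBC1D19 0.42 and TBC1D22A 0.24. Of 9 small GTPases related to RHEB, NRAS (0.40) and RAP1A (0.37) were higher and RALB (-0.73) lower, and 1 of the 9 was called without batch 5 or with breed as the only term.

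Markers of the cell types in muscle were read beside the share of all genes called, 15.6% higher and 17.5% lower. Of 6 skeletal muscle markers tested 5 were higher in Landrace, and their summed level was 130100 to 174600 CPM in Duroc and 122900 to 225800 CPM in Landrace. All 5 endothelial markers were lower, with a summed level of 59.4 to 172.2 CPM in Duroc and 31.97 to 144.7 CPM in Landrace. Lower levels were also called for 3 of 6 adipocyte (50%), 2 of 4 nerve and satellite cell (50%), 2 of 6 slow fibre (33.3%), 2 of 7 fibroblast (28.6%) and 1 of 9 leukocyte markers, counts too small to set apart from 17.5%. The 2 called in the nerve and satellite cell list were PAX7 and CHRNA1, while MBP did not pass (-0.061, edgeR FDR = 0.918). No marker list had a member at 0 in every pig. The part of cell composition in the breed difference of TBC1D7 or its partners was not tested.

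None of the tested genes beside TBC1D7 on chromosome 7 reached the size of its breed term. EDN1 came nearest in size, at -1.09 (SE 0.276), in the opposite direction. Of the 5 tested genes on each side, 2 were higher and 3 lower in Landrace, 5 of 10 in all, beside 33.1% of all genes (15.6% higher and 17.5% lower). The nearest, PHACTR1, an actin regulator whose gene ends at -18.4 kb, had a breed term of -0.41 (SE 0.165, edgeR FDR = 0.0668) at mean levels of 1.596 and 1.578 CPM. GFOD1, 26.9 kb away on the other side, had 0.29 (SE 0.177, edgeR FDR = 0.227). Farther out, NOL7 (0.36) and RANBP9 (0.30) were higher, and NEDD9 (-0.71) and EDN1 (-1.09), at levels under 3 CPM, were lower. HIVEP1 (0.13), TMEM170B (0.21), SIRT5 (0.15) and CD83 (-0.23) did not pass. After the breed means were removed, SIRT5, a mitochondrial deacylase 242 kb away, had an r of 0.623 with TBC1D7 and NOL7 0.519, and the other 8 lay between -0.453 and 0.103. NOL7 and RANBP9 overlap in the annotation, so their counts lack the pairs they share.

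**Figure D5:**
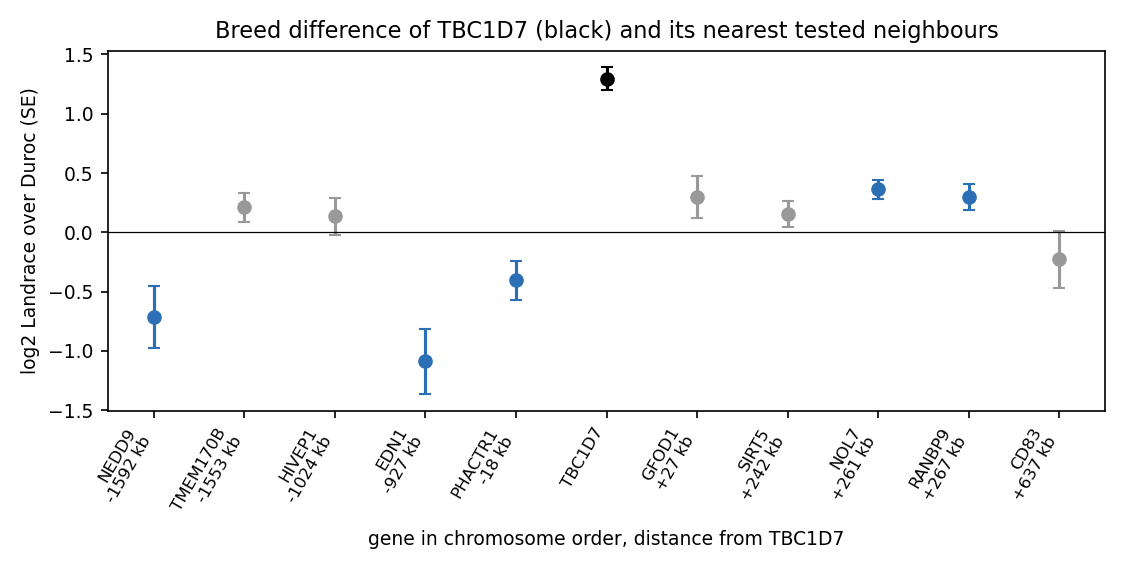
Breed term (log2 Landrace over Duroc, y axis, with SE) of TBC1D7 in black and the 5 nearest tested genes on each side in chromosome order (x axis, with the distance in kb), blue where the FDR was under 0.1 and grey otherwise. TBC1D7 stands at 1.30 and its neighbours lie between -1.09 and 0.36.

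The genes whose log2 CPM was most like that of TBC1D7 over the 41 pigs were other genes with a large breed difference. Since TBC1D7 was chosen by its breed difference, a ranking over both breeds favours such genes by construction. They were an unnamed gene (ENSSSCG00000005880, r = 0.891), KCNH2 (0.887), a potassium channel, IDI1 (0.878), an enzyme of isoprenoid synthesis, another unnamed gene (ENSSSCG00000035340, 0.876) and ASB1 (0.874), a ubiquitin ligase adaptor. The partners reached -0.273 (RPTOR) to 0.226 (TSC2). With the breed means removed, the most similar genes included TNPO3 (0.674), a nuclear import receptor, C15orf40 (0.672), ABCF2 (0.659) and HSCB (0.659), a chaperone of iron-sulfur clusters. On that measure the partners lay between -0.219 (RPTOR) and 0.131 (RHEB).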

How the data were processed

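The authors trimmed paired reads (100 bases, BGISEQ-500) with Trimmomatic 0.39, aligned them with STAR 2.7.1a to Sscrofa11.1 with Ensembl annotation 96 and let STAR count. The deposited values are raw counts of read pairs per gene for each of 41 pigs, and the unstranded column was used. Pairs on overlapping genes and multi-mapping pairs are not counted. No library was left out, and no 2 libraries were the same beyond counting noise (820 pairs compared). The models estimate the spread between pigs together with counting error.

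Genes passing filterByExpr (11146) were fitted with edgeR 4.0.16 (quasi-likelihood, TMM, R 4.3.3) on FCR, RIN, age, breed and batch (5 levels), with Benjamini-Hochberg FDR over all genes and a threshold of 0.1. DESeq2 1.42.0 and limma 3.58.1 (voom) were alternatives. Correlations used log2 CPM (prior count 2) and 100000 permutations in Python 3.11.15 with SciPy 1.17.1, and 1e-05 is the smallest p these can give. The breed term was tried on counts simulated with known breed differences, and the other terms and the correlations were not. Gene names and coordinates came from RefSeq tables of Sscrofa11.1. The members and lists were chosen with earlier results of these data known. From each list up to 3 genes with the smallest breed p among those called were named, with all members, the 5 nearest tested neighbours on each side and the 5 most similar genes, and 2 genes that this rule takes are not reported here. RPS6KA1, the muscle marker ACTA1 and the listed markers PAX7, CHRNA1 and MBP were named after their values were seen.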

Additional observations from a re-analysis of the deposited data

How the results depend on the processing

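The breed terms of TBC1D7 and RPTOR kept their direction in all 18 other settings and in all 41 fits without 1 pig, TSC2 kept it in the 41 fits and not with the strand columns summed, and the calls of RPTOR and TSC2 were lost in some of both. With 41 pigs and batches of 1 to 15, the terms of breed, age, FCR and batch could be separated only in part, and some terms changed sign. Of the 4 partners, the 2 called for breed became 0 with no filter, with batch left out, without batch 2 and with breed as the only term, and 1 with library size only, batch as a number, without batch 3 or 5, with age or RIN left out and with the strand columns summed (an alternative chosen after seeing the data, like the fits within a breed, those without 1 pig and the trait correlations). Breed calls over all genes fell to 2434 (batch left out), 1877 (without batch 2), 1608 (without batch 5) and 2209 (breed only). The RIN calls of partners became 4 (library size only), 0 (without batch 2) and 1 (batch as a number, without pigs with RIN below 7, without batch 4, strand columns), and those of all genes 3825 without batch 5. Age calls were 545 (DESeq2), 99 (no filter), 45 (library size only), 814 (batch as a number), 353 (without batch 4), 685 (FCR left out) and 0 with batch left out or without batch 2, 3 or 5. FCR calls were 5 (DESeq2) and 1 (without batch 4), and RIN by breed calls 1 (limma voom) and 123 (without pigs with RIN below 7), against 0. The causes were not tested.

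Some terms of members changed sign. Library size only moved the median breed term of all genes from -0.0024 to -0.18. For breed the terms were RHEB (-0.054 with library size only, -0.017 with batch left out), MTOR (-0.026 with library size only, -0.018 without batch 5) and TSC2 (-0.0087 with strand columns). For RIN, TBC1D7 had 0.051 (no filter), 0.29 (library size only), 0.14 (without batch 5) and 0.055 (strand columns), RHEB 0.18 (library size only) and TSC2 -0.11 (strand columns). RPTOR, at -0.0002, had 0.012 (DESeq2), 0.0069 (5 counts in every pig), 0.065 (no filter), 0.0098 (RLE), 0.31 (library size only), 0.011 (batch as a number), 0.029 (batch left out), 0.074, 0.018 and 0.0087 (without batch 2, 3 and 4), 0.010 (age left out) and 0.071 (strand columns). For age, TSC2 had 0.014 (library size only) and 0.0051 (strand columns), RHEB 0.0041 (library size only), 0.0023 (batch left out) and 0.016 (without batch 3), MTOR 0.0083 (library size only) and TBC1D7 0.0009 (batch left out). For FCR, TSC2 had 0.045 (library size only), 0.0049 (batch as a number) and 0.011 (without batch 5), MTOR 0.037 (library size only) and 0.0061 (without batch 5), and RHEB -0.019 and -0.032 (Duroc alone, edgeR and DESeq2). RPTOR had 0.0047 (no filter), 0.052 (library size only), 0.0045 (batch as a number), 0.0074 (batch left out), 0.0012 (without batch 2), 0.0080 (without batch 4), 0.0083 (age left out), 0.0038 (strand columns), 0.020 and 0.0065 (Duroc alone, edgeR and DESeq2).

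Leaving out 1 pig at a time gave 3075 to 3873 breed calls, 4997 to 5896 RIN calls, 0 to 484 age calls and 0 to 1 FCR call over all genes, and 0 to 2 partners for breed, 1 to 3 for RIN and 0 for age and FCR. Terms that changed sign in these fits ran from -0.15 to 0.035 (TBC1D7, RIN), -0.045 to 0.041 (RPTOR, RIN), -0.024 to 0.0091 (RPTOR, FCR), -0.034 to 0.011 (TSC2, FCR), -0.039 to 0.0094 (MTOR, FCR) and -0.0003 to 0.042 (RHEB, FCR).

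Correlations of TBC1D7 with partners changed sign in Duroc for TSC2 (0.012 as residuals on RIN, 0.229 on RIN, age and batch, 0.380 with library size only), MTOR (0.127 and 0.434 under the last 2) and RPTOR (0.311 with library size only). In Landrace, as residuals on RIN, age and batch, they became -0.134 (TSC2), -0.234 (RHEB) and -0.182 (MTOR), and with library size only 0.436 (TSC2), 0.509 (MTOR) and 0.448 (RPTOR). Of the trait correlations, RIN became 0.343 in Duroc and 0.613 in Landrace (adjusted permutation p = 0.00714) and age -0.035 in Landrace with library size only, FCR in Duroc weakened to -0.470, and as residuals RIN became 0.163 and age -0.269 in Landrace. No paired analysis was possible because the replicate numbers only name the pigs in accession order.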
